A study of Mus musculus with 2 samples.

Results

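Binding of the transcription factors STAT3 and STAT5 was described at 4 mouse genes of the SOCS family of feedback inhibitors: Cish, Socs1, Socs2 and Socs3. The members were chosen by name, and each was given a fixed window on the mouse build mm9: chr9:107170000-107260000 for Cish, chr10:94830000-94930000 for Socs2, chr16:10760000-10810000 for Socs1 and chr11:117790000-117870000 for Socs3. These 320 kb held 54 of the 86148 STAT sites called in the genome. The data are 2 libraries of chromatin immunoprecipitation followed by sequencing, in which an antibody pulls down a protein with the DNA fixed to it. Both libraries came from wild type C57BL/6J T helper 17 (Th17) cells, a class of CD4+ T cells named for the cytokine IL-17, polarized in culture. Naive CD4+ CD44- CD62L+ cells of spleen and lymph nodes had been grown for 3 days with antibodies to CD3, CD28 and IL-4, in TGF-beta (2 ng/ml) and IL-6 (20 ng/ml). The labels also list an IL-2 antibody, dosed in the unit used for IL-2 itself (100 IU/ml), so the state of IL-2 signalling before restimulation is not known. Restimulation lasted 30 minutes, with 40 ng/ml of IL-6 before immunoprecipitation of STAT3 or with 200 IU/ml of IL-2 before immunoprecipitation of STAT5, for which antibodies against STAT5A and against STAT5B were mixed. Antibody and cytokine therefore changed together and their parts cannot be told apart. There was 1 library of each kind (n = 1), no input library was analysed here, and the sources used here do not give the number of mice. Every interval below covers counting error only. The identity of the cells was not checked, because the reads come from genomic DNA and not from RNA.

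SOCS proteins limit cytokine signalling. A cytokine receptor activates JAK kinases, the kinases phosphorylate STAT proteins, and the STATs turn on genes that include those of the SOCS family. The proteins bind through an SH2 domain to receptors or kinases and recruit a ubiquitin ligase through their SOCS box, which dampens the pathway that induced them. SOCS3 is known to restrain signalling of the IL-6 receptor subunit gp130 through STAT3, and SOCS1 inhibits JAK kinases directly. CIS, the product of Cish, is a known target and inhibitor of STAT5 signalling, and SOCS2 is best known as an inhibitor of growth hormone signalling.

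STAT dimers recognize the palindrome TTCNNNGAA, which reads the same on both strands. Promoter sequences from RefSeq (GRCm38.p6) were found for 3 of the 4 genes, with no entry for Socs2. Sequences that hold a match to the palindrome are shown, printed 5′ to 3′ on the strand of the gene, with the matches in capitals. The files are on mm9 and no mm9 annotation was used here, so no site below is placed on a promoter, exon or intron. For Socs3 the 250 bases before the annotated start hold 1 match, from base -154 to base -146 relative to the start. For Cish there is no match in the 250 bases before the start, and 2 lie just after it, at bases 1 to 9 and 12 to 20, so a stretch of 30 bases around them is given.
Socs3 promoter: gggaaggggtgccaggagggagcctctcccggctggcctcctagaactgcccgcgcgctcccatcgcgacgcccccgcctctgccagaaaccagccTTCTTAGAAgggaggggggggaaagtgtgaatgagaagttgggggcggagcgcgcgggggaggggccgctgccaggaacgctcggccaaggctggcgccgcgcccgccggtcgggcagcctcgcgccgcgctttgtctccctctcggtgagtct
Cish start: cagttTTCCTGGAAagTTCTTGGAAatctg
The Socs1 promoter has no match in the 250 bases before the start or in the 50 after it. Of all 32851 promoters in the table, 7.02% hold a match in the 250 bases before the start. In the full 300 bases 8.3% hold at least 1 match and 0.457% hold 2 or more, as Cish does. A palindrome with 4 bases in place of 3 between TTC and GAA was found in none of the 3 promoters and in 6.95% of all. A match of letters is a description and not a measured site. In the same gene table Cish lies between the genes Mapkapk3 and Hemk1, Socs2 between Cradd and Mrpl42, Socs1 between Clec16a and Tnp2, and Socs3 between Tha1 and Pgs1, and a site in a window may belong to a neighbour.

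The Cish, Socs1 and Socs3 windows were dense in reads of both antibodies, and the Socs2 window was not. The STAT3 library held 20784388 nuclear reads and the STAT5 library 17963766, and counts are given as reads or as reads per 1000000 nuclear reads (RPM). The Cish window had 72.3 STAT3 and 154 STAT5 reads per kb, which is 8.21 and 20.3 times the genome mean. The Socs1 window had 74.9 and 127 reads per kb, 8.50 and 16.7 times the mean, and the Socs3 window 80.8 and 92.8, 9.18 and 12.2 times the mean. The Socs2 window had 11.5 STAT3 and 23.8 STAT5 reads per kb, only 1.30 and 3.12 times the mean. None of the 5133 windows of 90 kb laid end to end on chromosomes 9, 10, 11 and 16 held as many STAT5 reads as the Cish window, and 4 of 5777 windows of 80 kb held as many STAT3 reads as the Socs3 window. For Socs2, 345 of 4621 windows of 100 kb held as many STAT5 reads and 1337 as many STAT3 reads.

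**Figure D1:**
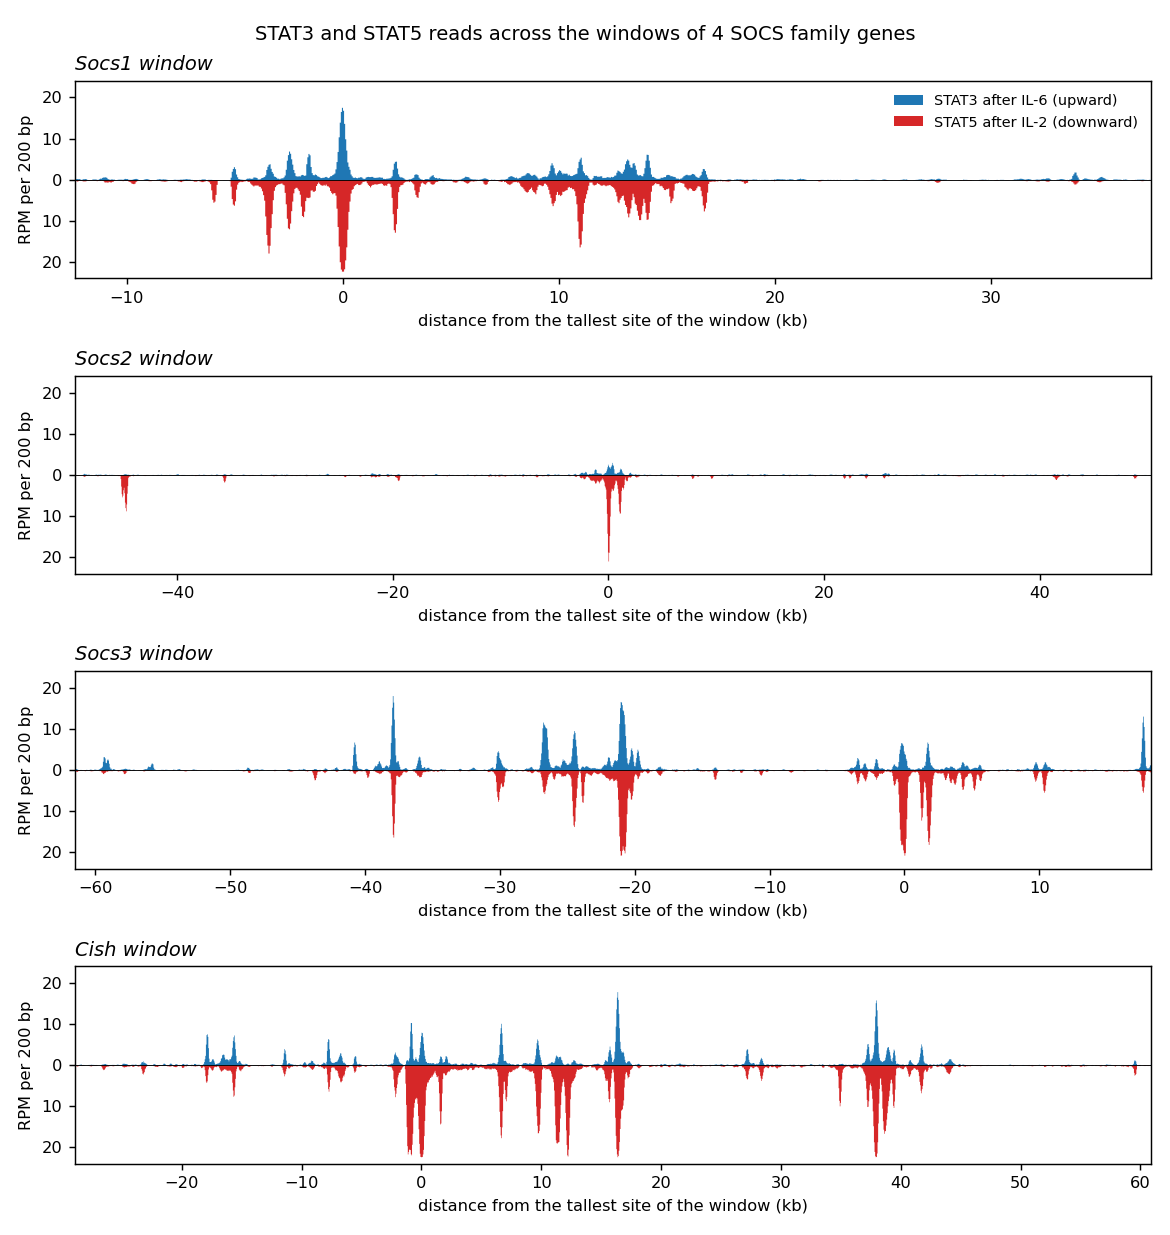
Reads of STAT3 (blue, drawn upward) and STAT5 (red, drawn downward) in 200 bp windows moved by 50 bp, in RPM, across the window of each gene. The horizontal axis is the distance in kb from the tallest site of that window, and Cish, Socs1 and Socs3 carry many peaks of both antibodies where Socs2 has a single tall STAT5 cluster and a smaller STAT5 peak about 45 kb to its left.

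A site was called where a 200 bp window held at least 4 times the reads of its surroundings, and reads were then counted in 400 bp around its centre. There were 17 sites at Cish, 12 at Socs2, 7 at Socs1 and 18 at Socs3. As many sites or more were found in 0.838% of windows of the same length for Cish, 9.72% for Socs2, 8.37% for Socs1 and 0.104% for Socs3. Tall sites made up a larger share than in the genome: 18 of 54 had 200 or more STAT5 reads, against 9.27% of all sites, and 12 of 54 had 200 or more STAT3 reads, against 4.09%. A site was called higher with an antibody when the 95% interval of the ratio of RPM lay wholly beyond 2-fold. By this rule 16 of 54 sites (29.6%) were higher with STAT5, against 25.1% of all sites, and 3 (5.56%) were higher with STAT3, against 2.42%. The STAT5 share is near the background, and 3 STAT3 sites are too few to set that share apart. Of the 21 sites with 200 or more reads of either antibody, 10 were higher with STAT5, against 55.2% of all sites that tall, and none with STAT3, against 4.43%. When the libraries were scaled by the 10 kb bins without a called region, every STAT5 to STAT3 ratio was 1.38 times as high, and 24 of the 54 sites were called higher with STAT5, against 32.5% of all sites with that scaling, and 2 with STAT3, against 0.788%. In 18 of 54 sites a region was called with both antibodies, against 47.7% of all sites, in 24 with STAT5 only, against 34.1%, and in 12 with STAT3 only, against 18.2%. A missing region does not mean missing reads, because a call is made against the surroundings. Among the sites with a STAT3 region only, 4 had 400 or more STAT5 reads. These shares therefore do not measure how often both antibodies were present.

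Cish held the site with most STAT5 reads in the genome. At chr9:107198901-107199150 there were 787 STAT5 reads and 262 STAT3 reads in 400 bp (43.8 and 12.6 RPM), and no other of the 86148 sites had more STAT5 reads. By STAT3 reads the same site ranked 1830. The STAT5 to STAT3 ratio of RPM was 3.48 (interval 3.02 to 4.01). In the deposited reads no position and strand occurs more than 1 time, so 400 bp can show at most 800 reads, and this site had used 98.4% of them with STAT5. The ratio is compressed for that reason, and near this limit a rank by STAT5 reads does not order sites by strength of binding. A correction for positions already taken raised the ratio to 12.0 (9.26 to 15.7). It treats reads as spread evenly over the 400 bp. The central 200 bp were full with STAT5, where such a correction has no finite value. The corrected ratio may therefore be too low, and its interval does not cover this. No STAT5 region was called there, because the mean over the surrounding 5 kb was 137 STAT5 reads per 200 bp and 400 reads, the most a 200 bp window can show, are less than 4 times that. The tallest window was full in this sense, with a read at all 400 combinations of position and strand.

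The other tall Cish sites differed in how much STAT3 they held. At chr9:107236701-107237150, there were 452 STAT3 and 761 STAT5 reads (ratio 1.95, 1.73 to 2.19), and at chr9:107215101-107215650 there were 545 and 737 (1.56, 1.40 to 1.75). Both were tall with both antibodies, ranking 239 and 71 of all sites by STAT3 and 11 and 26 by STAT5, and neither passed the 2-fold limit. At chr9:107197951-107198300, 850 bp from the tallest site, there were 255 STAT3 and 667 STAT5 reads (3.03, 2.62 to 3.51), and at chr9:107208451-107208900 there were 187 and 474 (2.93, 2.47 to 3.49). Those sites were called higher with STAT5. The site at chr9:107211051-107211350 stood apart: its 652 STAT5 reads met 14 of STAT3, which gave 53.9 (31.9 to 99.1). Its STAT3 count was about 4 times the genome mean of 3.52 reads per 400 bp, and its STAT5 count ranked 155 of all sites. By ratio it ranked 1056 of all sites. The lowest ratio at Cish was 0.519 (0.398 to 0.672) at chr9:107180951-107181250, with 194 STAT3 and 87 STAT5 reads, so STAT3 was higher there by 1.93 times, short of the limit. Over the 17 sites STAT3 reads ran from 12 to 545 (median 156) and STAT5 reads from 28 to 787 (median 132), and 4 sites were called higher with STAT5 and none with STAT3.

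At Socs2 a single tall site had far more STAT5 than STAT3. The site at chr10:94879351-94879750 had 80 STAT3 and 520 STAT5 reads (3.85 and 28.9 RPM). The ratio was 7.52 (5.93 to 9.64), and it ranked 765 by STAT5 and 17605 by STAT3 among all sites, with STAT3 at 22.7 times the genome mean. The adjoining site at chr10:94879801-94880000 was the only one in the window with a STAT3 region. It had 92 STAT3 and 137 STAT5 reads (1.72, 1.31 to 2.27), and its centre lay 350 bp from that of the STAT5 site. The second tallest, at chr10:94834301-94835000, had 9 STAT3 and 199 STAT5 reads (25.6, 13.2 to 56.8), the largest ratio of the window. Beyond these 3, the remaining 9 sites were low, with 1 to 18 STAT3 and 14 to 36 STAT5 reads. Among them were chr10:94843751-94844100 with 7 and 36 reads, chr10:94859901-94860250 with 7 and 31, chr10:94920901-94921250 with 8 and 28, and chr10:94905001-94905200 with 18 and 15, the lowest ratio of the window at 0.964 (0.452 to 2.03). In all, 5 of 12 sites were called higher with STAT5 and none with STAT3. At a stricter adjusted p of 1e-10 the window held 5 sites in all, whichever way they were called.

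Socs1 had 1 site that was tall with both antibodies and a row of STAT5-weighted ones. The site at chr16:10772201-10772700 had 552 STAT3 and 740 STAT5 reads (26.6 and 41.2 RPM), ranking 65 of all sites by STAT3 and 23 by STAT5. Its ratio was 1.55 (1.39 to 1.73) and 2.56 (2.12 to 3.09) after correction for positions already taken. STAT5 was called higher at chr16:10768901-10769200 with 110 STAT3 and 448 STAT5 reads (4.71, 3.82 to 5.86), the largest ratio of the 7 sites. It was also higher at chr16:10783301-10783600 with 139 and 403 reads (3.35, 2.76 to 4.10), at chr16:10774751-10775050 with 112 and 273 (2.82, 2.26 to 3.55) and at chr16:10789101-10789300 with 72 and 168 (2.70, 2.04 to 3.61). The site at chr16:10786451-10786650 had 160 and 242 reads (1.75, 1.43 to 2.15). The lowest ratio, 0.605 (0.349 to 1.02), belonged to a small site at chr16:10806201-10806550 with 44 STAT3 and 23 STAT5 reads. With a minimum of 8-fold over the surroundings no Socs1 site was left.

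Socs3 was the only member with sites called higher with STAT3, 3 of its 18, against 2.42% of all sites. So few sites do not set the gene apart. Its tallest sites by STAT5 were nearly equal in STAT5 and unequal in STAT3. At chr11:117851201-117851750 there were 183 STAT3 and 648 STAT5 reads (8.80 and 36.1 RPM), a ratio of 4.10 (3.47 to 4.85), and at chr11:117830351-117831050 there were 565 and 639 (27.2 and 35.6 RPM), a ratio of 1.31 (1.17 to 1.47). The latter ranked 54 of all sites by STAT3 and had the most STAT3 reads of the 54 SOCS family sites. Which of these sites is the tallest depends on the settings: with exact matches only, or with reads moved by 75 bp, it was the second, and the ratio at the tallest Socs3 site was then 1.30 or 1.31. The site at chr11:117813401-117813900 had 484 STAT3 and 340 STAT5 reads (0.813, 0.705 to 0.936), ranking 172 by STAT3 and 3258 by STAT5. At chr11:117824651-117825150 there were 369 and 146 reads (0.458, 0.375 to 0.556), and at chr11:117826951-117827250 there were 314 and 362 (1.33, 1.14 to 1.56). The site at chr11:117853201-117853450 had 183 and 455 reads (2.88, 2.42 to 3.43) and was called higher with STAT5.

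All 3 sites called higher with STAT3 in the family were in the Socs3 window, and none was among its tallest. At chr11:117810651-117810950 there were 160 STAT3 and 19 STAT5 reads, a STAT3 to STAT5 ratio of 7.28 (4.51 to 12.4). At chr11:117795601-117795950 there were 40 STAT3 and 2 STAT5 reads (17.3, 4.48 to 148), the lowest STAT5 to STAT3 ratio of the window, and at chr11:117792051-117792650 there were 83 and 22 (3.26, 2.02 to 5.48). A taller site at chr11:117869051-117869500, close to the edge of the window, had 312 STAT3 and 115 STAT5 reads, a STAT3 to STAT5 ratio of 2.34 (1.89 to 2.93) that did not clear the limit. In the opposite direction the largest ratio was 6.25 (3.15 to 13.8) at the small site chr11:117807651-117808100, with 10 STAT3 and 54 STAT5 reads. In the Socs3 window 3 of 18 sites were called higher with STAT5 and 3 with STAT3. With the other scaling these counts became 6 and 2. The site of 83 STAT3 reads was no longer called (STAT3 to STAT5 2.36, 1.46 to 3.96). At the site of 484 STAT3 reads the STAT5 to STAT3 ratio passed 1, and the site was still called for neither antibody.

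**Figure D2:**
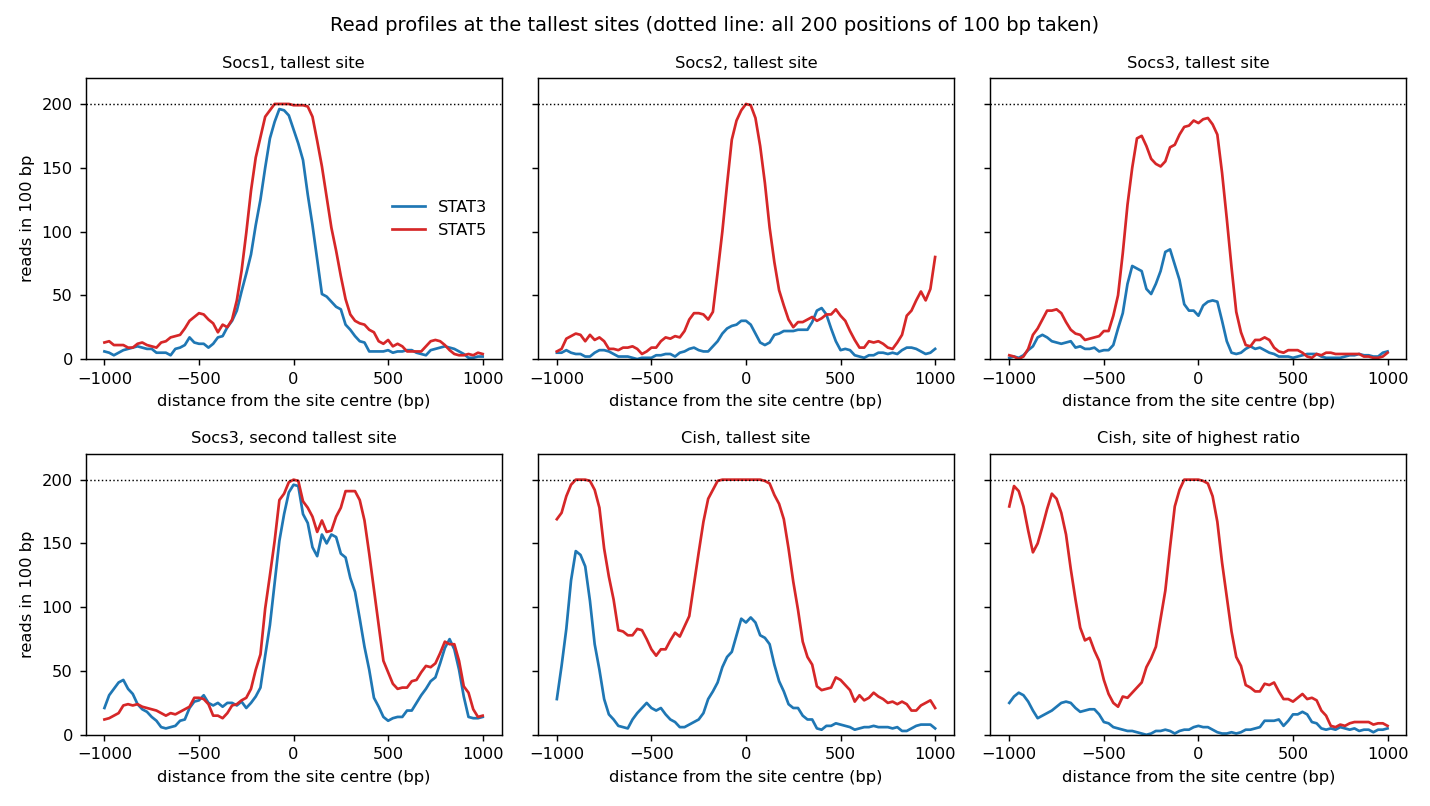
Reads of STAT3 (blue) and STAT5 (red) in 100 bp windows moved by 25 bp, against the distance in bp from the centre of 6 sites; the dotted line marks 200 reads, the most that 100 bp can show. STAT5 reaches this ceiling at every site shown except the tallest Socs3 site, where it comes close. STAT3 nearly reaches it at Socs1 and at the second tallest Socs3 site, and at the Cish site of highest ratio STAT3 stays near the bottom of the axis.

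The 4 genes were then compared by their STAT5 to STAT3 ratios, first over all reads of the windows, which uses no site call. Cish had a ratio of 2.47 (2.40 to 2.55), Socs2 of 2.40 (2.23 to 2.57), Socs1 of 1.96 (1.88 to 2.04) and Socs3 of 1.33 (1.28 to 1.37). Of the 6 pairs of genes, 5 differed beyond counting error. The Cish ratio was 1.86 times that of Socs3 (1.78 to 1.95) and 1.26 times that of Socs1 (1.20 to 1.33). The Socs2 ratio was 1.80 times that of Socs3 (1.67 to 1.95) and 1.22 times that of Socs1 (1.13 to 1.33), and the Socs1 ratio 1.47 times that of Socs3 (1.40 to 1.55). Cish and Socs2 had a ratio of ratios of 1.03 (0.955 to 1.11), an interval that allows either to be the higher. Window ratios mix sites with the reads between them. At Socs2 17.5% of STAT3 and 45.1% of STAT5 reads lay in sites, and at Cish 44.8% and 37.3%. The ceiling on reads also bears on them unequally: 81 of 1797 Cish windows of 200 bp held over 200 STAT5 reads, and 5 of 1997 at Socs2. What these add to the window ratios was not tested. Socs3 had the lowest ratio of the 4.

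At called sites the values were further apart, but the calls help to set them. A site had to pass with at least 1 antibody, and at Socs2 11 of 12 sites had passed with STAT5 only and none with both, so a high ratio there was favoured by the choice of sites. At Socs1 4 of 7 sites had passed with STAT5 only, at Cish 4 of 17 and at Socs3 5 of 18, and with STAT3 only 1, 4 and 6. The sums over sites are therefore a description. Summed over 400 bp of every site, the ratio was 5.01 at Socs2 (243 STAT3 and 1053 STAT5 reads), 2.24 at Socs1 (1189 and 2297), 2.13 at Cish (2943 and 5416) and 1.26 at Socs3 (3074 and 3350). The median over single sites was 4.40, 2.70, 1.95 and 1.32 in the same order, and was 2.05 over all 54 sites and 1.24 over all sites of the genome. Socs3 was lowest under the main setting and all 13 alternatives, though 8-fold over the surroundings left no Socs1 site to compare. The alternatives include all reads of the window, which is not a sum over sites, and all of them recount reads of the same 2 libraries. Socs2 was highest in every setting that counts at called sites and not over all reads of the window. The order of Socs1 and Cish changed with the setting, as with the correction for positions already taken (2.93 and 3.91).

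**Figure D3:**
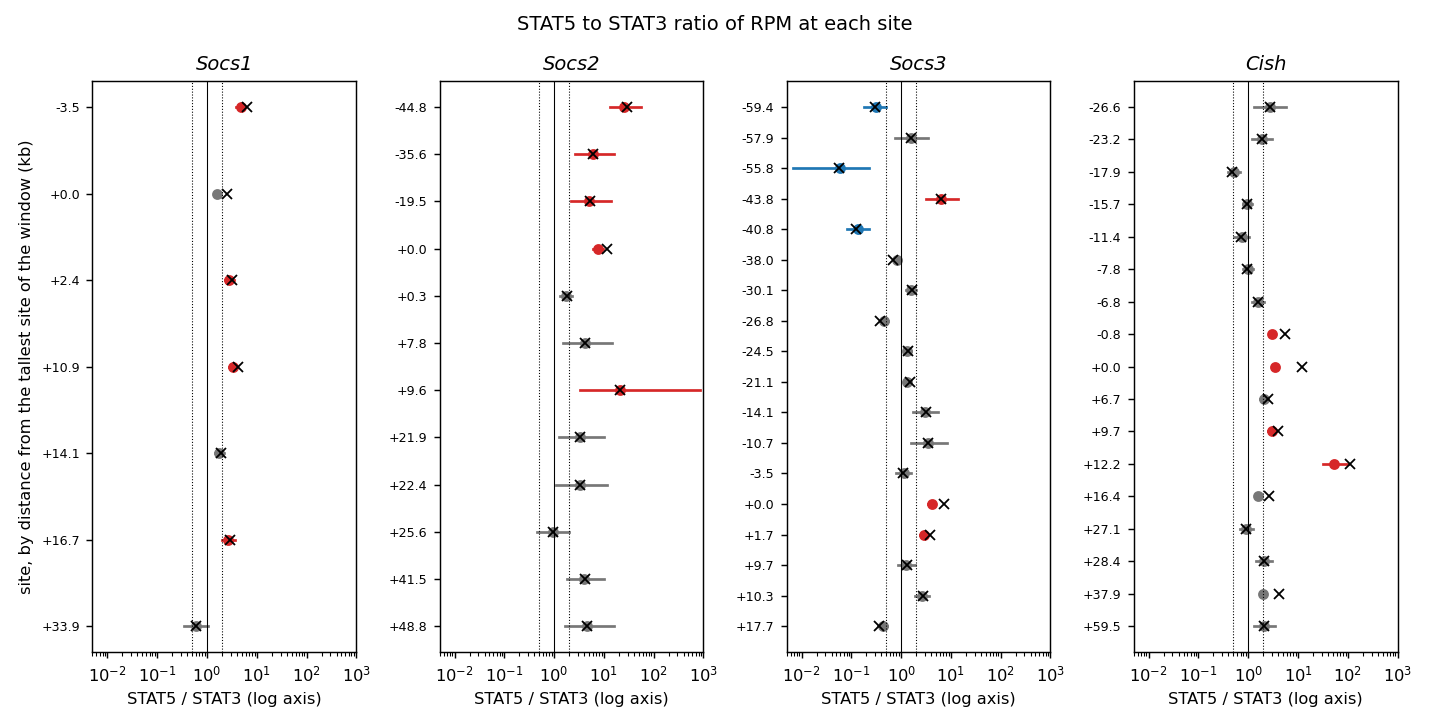
STAT5 to STAT3 ratio of RPM (log axis) at each site of the 4 genes, ordered along the chromosome and labelled by the distance in kb from the tallest site of the window. Points are ratios and bars exact 95% intervals, in red where called higher with STAT5, blue where higher with STAT3 and grey otherwise, crosses are ratios corrected for positions already taken, and dotted lines mark 2-fold. Blue points appear at Socs3 only, and the crosses move farthest from the points at the Cish sites.

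At the tallest site of each gene the order was different again. The ratio was 7.52 at Socs2, 4.10 at Socs3, 3.48 at Cish and 1.55 at Socs1. These sites were picked as the tallest with either antibody, so their ratios are a description as well. After the correction for positions already taken, Cish stood at 12.0, Socs2 at 11.5, Socs3 at 7.40 and Socs1 at 2.56. The ceiling moved Cish most, and the order of tall sites cannot be read from the uncorrected ratios. The corrected order is no firmer, because the correction treats reads as spread evenly and the centre of the Cish site was full with STAT5. Ratios of the sites counted here are shown among those of all sites in the plot of STAT5 against STAT3 RPM.

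**Figure D4:**
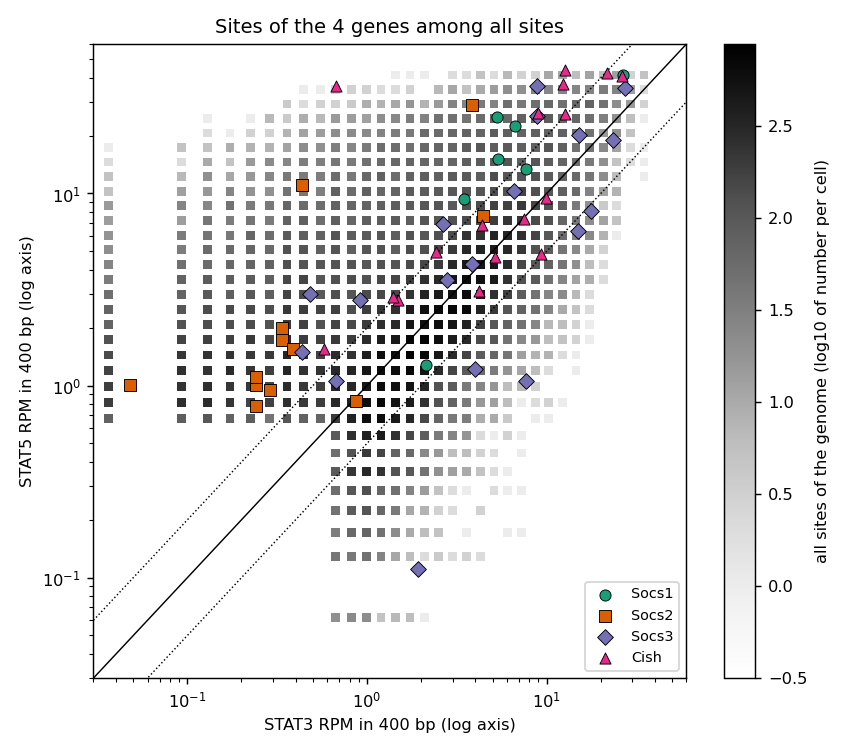
STAT5 against STAT3 RPM in 400 bp at each site (log axes). Grey cells give the number of all sites in the genome on a log10 scale, coloured symbols are the sites of the 4 genes, the solid line marks equal RPM and dotted lines 2-fold, and sites without a read of 1 antibody are not drawn. The tall Cish, Socs1 and Socs3 sites lie at the upper right where both antibodies are high, most Socs2 sites lie at the left with few STAT3 reads, and 1 Cish triangle lies at the upper left.

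Called sites were not the whole of the signal, because tall neighbours raise the local mean. Local maxima of the 200 bp profile at 2 RPM or more, read with no call against the surroundings and chosen after the data were seen, numbered 33 at Cish, 34 at Socs3, 20 at Socs1 and 5 at Socs2. Of these, 17, 19, 14 and 2 lay over 200 bp from the centre of any called site. A maximum that far from a centre can still lie inside a site, as at base 117851350 of chromosome 11. Among all 92 maxima, 35 were maxima of STAT5 alone (10 at Cish, 14 at Socs3, 8 at Socs1 and 3 at Socs2). Maxima of STAT3 alone numbered 4 at Cish, 6 at Socs3, 1 at Socs1 and 1 at Socs2. Alone means that the other antibody had no such maximum at that place, and its reads could still be many. By the 2-fold rule in 200 bp, 18 of the 35 were higher with STAT5. The STAT5 maximum at base 117861300 of chromosome 11 had 41 STAT3 and 49 STAT5 reads. The STAT3 maximum at base 117851350 had 138 and 326. Maxima of the profile were not counted in the rest of the genome, so these numbers show no excess particular to these genes. A maximum of 1 antibody alone was chosen for being high with it, so the ratios that follow describe single places and were not set against the rest of the genome. At Cish, a maximum centred at base 107197850 of chromosome 9 had 26 STAT3 and 388 STAT5 reads in 200 bp (ratio 17.3, 11.6 to 26.8), and 300 bp away 215 STAT3 reads met 392 STAT5 reads (2.11, 1.78 to 2.50). Another, centred at 107237600, had 24 and 298 reads (14.4, 9.47 to 22.8), against 93 and 178 at a distance of 300 bp. At Socs3, the maximum at base 117852850 of chromosome 11 had 7 STAT3 and 219 STAT5 reads (36.2, 17.3 to 91.1), and 550 bp away there were 99 and 325 (3.80, 3.02 to 4.81). At Socs1, the maximum at base 10786200 of chromosome 16 had 25 and 174 reads (8.05, 5.28 to 12.8), and 350 bp away there were 129 and 173 (1.55, 1.23 to 1.96). In the opposite direction, the STAT3 maximum at base 117810800 of chromosome 11, in the Socs3 window, had 141 STAT3 and 14 STAT5 reads, and that at base 107182450 of chromosome 9, at Cish, had 56 and 19. Some STAT5 maxima lay farther from a maximum with STAT3: at Cish, base 107233900 had 7 STAT3 and 178 STAT5 reads (29.4, 14.0 to 74.2) at 2300 bp from the nearest. At Socs1, base 10766500 had 1 and 98 reads, where 1 STAT3 read leaves a wide interval (113, 19.9 to 4524), at 950 bp from the nearest.

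Where both antibodies had a region, the median positions of their reads were compared within the same 400 bp. Over the 18 such sites the median fragment positions differed by a median of 19.8 bp (range 0 to 69), and at 11 sites by 25 bp or less. The shared 400 bp limits how far the medians can differ, so they do not show that the summits coincide. At chr11:117851201-117851750 the medians lay at -82 bp for STAT3 and -13 bp for STAT5 from the centre. There the fullest 200 bp window lay at -250 bp for STAT3 and at 0 bp for STAT5. Strand balance was even at sites of 100 or more reads, with 43.2 to 57.4% of reads on the plus strand.

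Reads outside the sites were unequal as well. More than 1 kb from any site, the STAT5 to STAT3 ratio of RPM was 1.97 (1.84 to 2.11) in the Cish window, 1.60 (1.48 to 1.74) at Socs1, 1.33 (1.22 to 1.45) at Socs3 and 1.10 (0.979 to 1.23) at Socs2. The mean there was 5.49 STAT3 and 9.34 STAT5 reads per 200 bp at Cish and 1.73 and 1.63 at Socs2, against genome means of 1.76 and 1.52. These reads include maxima that were not called. Taking off the mean of flanks 5 kb away left ratios over all sites of 5.96 at Socs2 and 1.96 at Cish. Some Cish flanks were themselves dense in STAT5 reads that were not called. The flank mean in 400 bp was 59.5 STAT3 and 310 STAT5 reads for chr9:107205401-107205850, and 54 and 338.5 for chr9:107215101-107215650. At Cish more than background was therefore taken off.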

How the data were processed

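STAT3 and STAT5 chromatin immunoprecipitation reads were analysed from 1 library each. The authors' deposited files list aligned reads of 25 nt, with mm9 as the build per the submitters' processing notes; the sources used here name no aligner or filter. The deposited score was 0 in every line and was not used. Positions are counted from 1. No nuclear position and strand occurred more than 1 time within a library.

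Read 5′ ends were moved by 50 bp in the 3′ direction and counted in 200 bp windows every 50 bp on all autosomes and both sex chromosomes. Calling required 5 reads or more, at least 4 times the genome-wide mean and the means of the surrounding 5 kb and 10 kb (which include the window), and a Poisson p, 1-sided and Benjamini-Hochberg adjusted over windows with a read, at or below 1e-05. Called windows within 100 bp were joined, 107 STAT3 and 183 STAT5 regions with over 80% of reads on 1 strand were left out, and overlapping regions were merged to sites. Ratios of RPM in 400 bp have exact conditional (Clopper-Pearson) 95% intervals. Correction for positions taken was -800 ln(1 - n/800) for n reads, with the intervals of both counts combined at their extremes. It assumes reads spread evenly over the 400 bp. With n = 1 no p-value compares the antibodies. Ratios of ratios have exact conditional intervals. The sites named are the 6 tallest of each window and those with the largest ratio on each side, with a few more named after their values were seen. Members, lists and tests were chosen with earlier results of these data known, and the wider motif window was added after the sequences were seen. Other pathway genes need an mm9 annotation and were not analysed here. The caller was tested on simulated reads, where it found 186 of 190 planted sites with 0 false sites. Those sites were isolated on an even background, so calling in dense or full windows was not tested. Tools were matplotlib 3.10.9, pandas 2.3.3, scipy 1.17.1, numpy 2.4.6 and Python 3.11.15.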

Additional observations from a re-analysis of the deposited data

How the results depend on the processing

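No paired analysis was possible because there is 1 library of each kind. Of 148 planned recalculations, 89 stayed within their limit (1.5 times for a count, the exact interval for a ratio or share), 57 moved and 2 reversed. A minimum of 8-fold left 5 sites at Cish, 0 at Socs1, 3 at Socs2 and 6 at Socs3. Tallest sites were then others, with ratios of 1.56 at Cish, 25.6 at Socs2 and 0.813 at Socs3, which reversed. Over all sites the 8-fold ratios were 1.65 at Cish, 14.0 at Socs2 and 0.991 at Socs3, which also reversed, with an interval from 0.904 to 1.09. Fewer sites follow from the threshold. With the genome-wide mean alone Socs1 had 12 sites, and ratios over all sites were 2.01 at Cish, 1.96 at Socs1 and 1.35 at Socs3. At an adjusted p of 1e-10 Socs2 had 5 sites. Maxima of the profile, chosen after the data were seen, numbered 33, 20, 5 and 34 at Cish, Socs1, Socs2 and Socs3. All reads of the window, an alternative also chosen after the data were seen, gave 2.47, 1.96, 2.40 and 1.33 in the same order of genes. Correction for positions taken gave 12.0, 2.56, 11.5 and 7.40 at the tallest sites and 3.91, 2.93, 6.48 and 1.45 over all sites, in the same order of genes. Scaling by bins without a region gave 4.81, 2.15, 10.4 and 5.67 at the tallest sites and 2.95, 3.09, 6.94 and 1.74 over all sites. Counting in 200 bp gave 2.79 at Cish, 1.32 at Socs1 and 5.19 at Socs3 for the tallest sites, and 1.72 at Cish and 1.19 at Socs3 over all sites. Counting in 1000 bp gave 4.36 at Cish and 4.63 at Socs2 for the tallest sites, and 2.54 at Cish and 1.35 at Socs3 over all sites. With the flank mean taken off, ratios over all sites were 1.96 at Cish, where some flanks held dense uncalled STAT5 reads, and 5.96 at Socs2. The ratio at the tallest Socs3 site was 1.30 with exact matches only and 1.31 with a shift of 75 bp, where another site was the tallest. The share of all sites higher with STAT5 was 32.6% at 8-fold, 29.6% at 1e-10, 26.2% with the correction, 27.7% in 200 bp, 19.7% in 1000 bp, 19.7% with the genome-wide mean alone, 32.5% with the other scaling and 25.5% with a shift of 75 bp. The share higher with STAT3 was 2.62%, 2.85%, 2.93%, 3.18%, 1.66%, 2.05% and 0.788% under the first 7 of these. Beyond what a threshold fixes, the cause was not tested. After the correction 18 of the 54 sites were called for STAT5 and 4 for STAT3, with the intervals of both counts combined at their extremes. The shares of all sites with the correction, 26.2% and 2.93%, used the exact interval of the corrected counts. The 54 sites therefore cannot be set against those shares. Depth limits the small sites, where an interval spans several-fold.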
